A study of Mus musculus with 6 samples.

Results

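Wild-type Sox11 delivered by an adeno-associated virus (AAV) was compared with a control AAV in cultured mouse retinal ganglion cells (RGCs). The comparison used the 4 libraries labelled as control or as wild-type Sox11, of 6 in the series, with 2 in each group and control as the reference. The other 2 libraries came from cells given Sox11-K91A, a form with the lysine at position 91 changed to alanine, and entered the statistical fit only to help estimate the spread between replicates. All cells were purified by immunopanning on CD90.1 (Thy1) and plated at 250000 per well in medium with BDNF (50 ng/ml), CNTF (10 ng/ml) and forskolin. The AAV2 viruses encoded GFP alone in the control and Sox11 together with GFP in the treated wells. They were added 4 h after plating (1.5 μl, about 100000 vector genomes per cell). Medium was replaced 5.5 and 24 h after the virus, cells were lysed for RNA at 72 h in culture, and each library was made from 500 ng. One description of the cells places them at embryonic day 18 and another at postnatal day 2, so their age is uncertain. The promoter that drives the viral gene is not given in the sources used here. The libraries are described as 3 RNA samples in duplicate, and whether the duplicates are separate cultures is not stated. Replicates of control and of Sox11 differed in RNA of sex-linked genes (below), and the origin of this difference was not tested. If the replicates are technical, p-values measure only the spread between these libraries.

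RGCs are the output neurons of the retina, whose axons form the optic nerve. Sox11 belongs to the SoxC group of transcription factors, which bind DNA through an HMG box, are strongly expressed in young neurons, and decline as neurons mature. In the retina SoxC factors are needed for RGCs to form. The account below concerns functions other than axon guidance, axonogenesis, neuron migration and the generation of neurons: energy metabolism, stress responses, protein and chromatin machinery, excitability and synapses, signalling pathways, and matrix and adhesion.

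The expected counts per library ranged from 27521981 to 37061718. On the first principal component (60.8% of variance) both control libraries lay at one end (-78.4 and -76.1), with Sox11 replicate 1 at 21.2 and Sox11 replicate 2 at the other end, at 80.5. The second component (18.9%) set control replicate 2 (-47.7) and Sox11 replicate 2 (-44.7) apart from the other 4 libraries. These same libraries had less Xist, the RNA that coats the inactive X chromosome, at 96 and 254 CPM (counts scaled to a library of 1000000) against 400.3 and 526 CPM in the replicates numbered 1. Control and Sox11 each hold 1 library of each kind, whereas the Sox11-K91A libraries had 506.1 and 480.5 CPM of Xist. RNA of the Y-linked gene Eif2s3y was higher in the libraries of low Xist, at 25.2 and 33.9 CPM against 7.66 and 12.6 CPM in the control and Sox11 replicates numbered 1. With the libraries of low Xist as a block, the test described below called 2230 genes up and 2398 down, against 1568 and 1603 without it.

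Sox11 itself was at 234 and 332 CPM in control and 9178 and 14591 CPM with Sox11, and the groups did not overlap. This is a 41.6-fold rise (log2 fold change 5.38, SE 0.33, adjusted p = 0.0075 from limma-voom with Benjamini-Hochberg adjustment, the test behind all adjusted p-values below). Viral and endogenous Sox11 RNA cannot be told apart in these counts. RGC markers were present in all 4 libraries. Pou4f1, a defining RGC transcription factor, was at 428 and 369 CPM in control and 386 and 321 CPM with Sox11, Rbpms at 232 and 242 CPM in control and 225 and 194 CPM with Sox11, and Isl1 at 260.2 and 269.8 CPM in control and 282 and 268 CPM with Sox11, and none of these passed the test. Of all 9 RGC markers 3 fell, and Sox11 was the only rise. The falls were in Thy1, in the neurofilament Nefl (7084 and 6347 CPM in control and 4103 and 2189 CPM with Sox11) and in the glutamate transporter Slc17a6 (653 and 546 CPM in control and 356 and 316 CPM with Sox11). Thy1, the antigen used for purification, was at 725 and 689 CPM in control and 259 and 46.3 CPM with Sox11 (log2 fold change -2.69, SE 0.75, adjusted p = 0.048). The glial marker Gfap, the microglial markers Tyrobp and P2ry12, and Olig2 of the oligodendrocyte lineage were at 0 in all 4 libraries. Of 12 markers of microglia and macrophages, 9 were under 1 CPM in all 4 libraries, as were 11 of 14 of photoreceptors. Amacrine cell markers were detectable, with summed levels of 461 and 207 CPM in control and 446 and 276 CPM with Sox11, and 1 of 9 tested fell and 0 rose. Markers of other retinal cells were not uniform in direction. Markers of Muller glia and astrocytes, 12 in all, summed to 1845 and 1435 CPM in control and 1154 and 707 CPM with Sox11, while 1 of the 10 tested rose (Glul) and 1 fell (S100b). Most of that sum was Clu, which astrocytes and neurons both express, at 1610.0 and 1135 CPM in control and 679 and 227 CPM with Sox11 (not called, adjusted p = 0.054), while Vim was at 123 and 191 CPM in control and 199 and 177 CPM with Sox11. Photoreceptor markers summed to 20.1 and 19.3 CPM in control and 7.86 and 5.10 CPM with Sox11, and 2 of 6 tested fell, Rom1 and Pde6b. Prox1 of horizontal cells, Mog and Pdgfra of the oligodendrocyte lineage rose, and Prkca of bipolar cells fell. The part of these cells in the results below was not tested. Gad1 was at 36.2 and 2.83 CPM in control and 17.5 and 2.23 CPM with Sox11, lower in the replicates numbered 2 of both groups. In bulk RNA, fewer cells of a type and less RNA per cell cannot be told apart.

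Of 15747 genes tested, 1568 (9.96%) rose and 1603 (10.2%) fell with Sox11 at an FDR under 0.05 and a fold change above 1.2. A change of more than 2-fold was seen in 869 of the genes that rose and in 984 of those that fell. The median log2 fold change was 1.07 among the genes called up, -1.2 among those called down, and 0.0086 over all genes tested. In all 3171 genes called (20.1%) the groups did not overlap, so wherever a gene is said below to have risen or fallen both Sox11 libraries lay on the same side of both control libraries. Of all genes tested, 30.9% had both Sox11 libraries above both control libraries and 30.6% had both below. A fit of the 4 libraries alone called 797 up and 801 down. The median absolute log2 difference between replicates was 0.34 in control, 0.26 with Sox11 and 0.16 with Sox11-K91A. SEs and adjusted p-values from the fit of 6 libraries pool these spreads. The part of the smaller Sox11-K91A spread in the calls was not tested. Of the 3171 genes called, 3169 had a value in a fit without Sox11 replicate 2, and all 3169 kept their sign with a fold change above 1.2. The sign follows from the lack of overlap. Passing the test rested on Sox11 replicate 2, and leaving it out leaves 1 Sox11 library. Without it, limma-voom called 0 genes (lowest adjusted p = 0.056, with 3347 of 16206 genes at an unadjusted p under 0.05), edgeR called 107 up and 10 down, and DESeq2 called 713 up and 714 down. Against the control mean, the median difference of the genes called up was 0.895 (log2) in Sox11 replicate 1 and 1.16 in replicate 2, and that of the genes called down was -0.906 and -1.3. On log2(TPM + 0.1) values, 61.1% of the genes called were higher with Sox11, against 49.4% in the main test. TPM is a level scaled for transcript length and library.

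The affected functions were described with 62 lists of genes, which held 2666 genes tested. A list is read against the share of all genes tested that rose (9.96%) or fell (10.2%), and against the median log2 fold change of all genes of 0.0086. The lists with the highest shares of falls were those of the unfolded protein response, the respiratory chain, oxidative stress and neuropeptides. The lists with the highest shares of rises were those of p53 targets and Hedgehog signalling, followed by the small list of crystallins and by glutamate receptors, and the chromatin list was near them. These counts moved with the settings of the test as the totals did. Apart from leaving out Sox11 replicate 2, which left no call, falls in the respiratory chain ranged from 6 to 64 over the alternatives, those in the unfolded protein response from 8 to 28, those in oxidative stress from 5 to 24, and rises among p53 targets from 6 to 18.

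**Figure D1:**
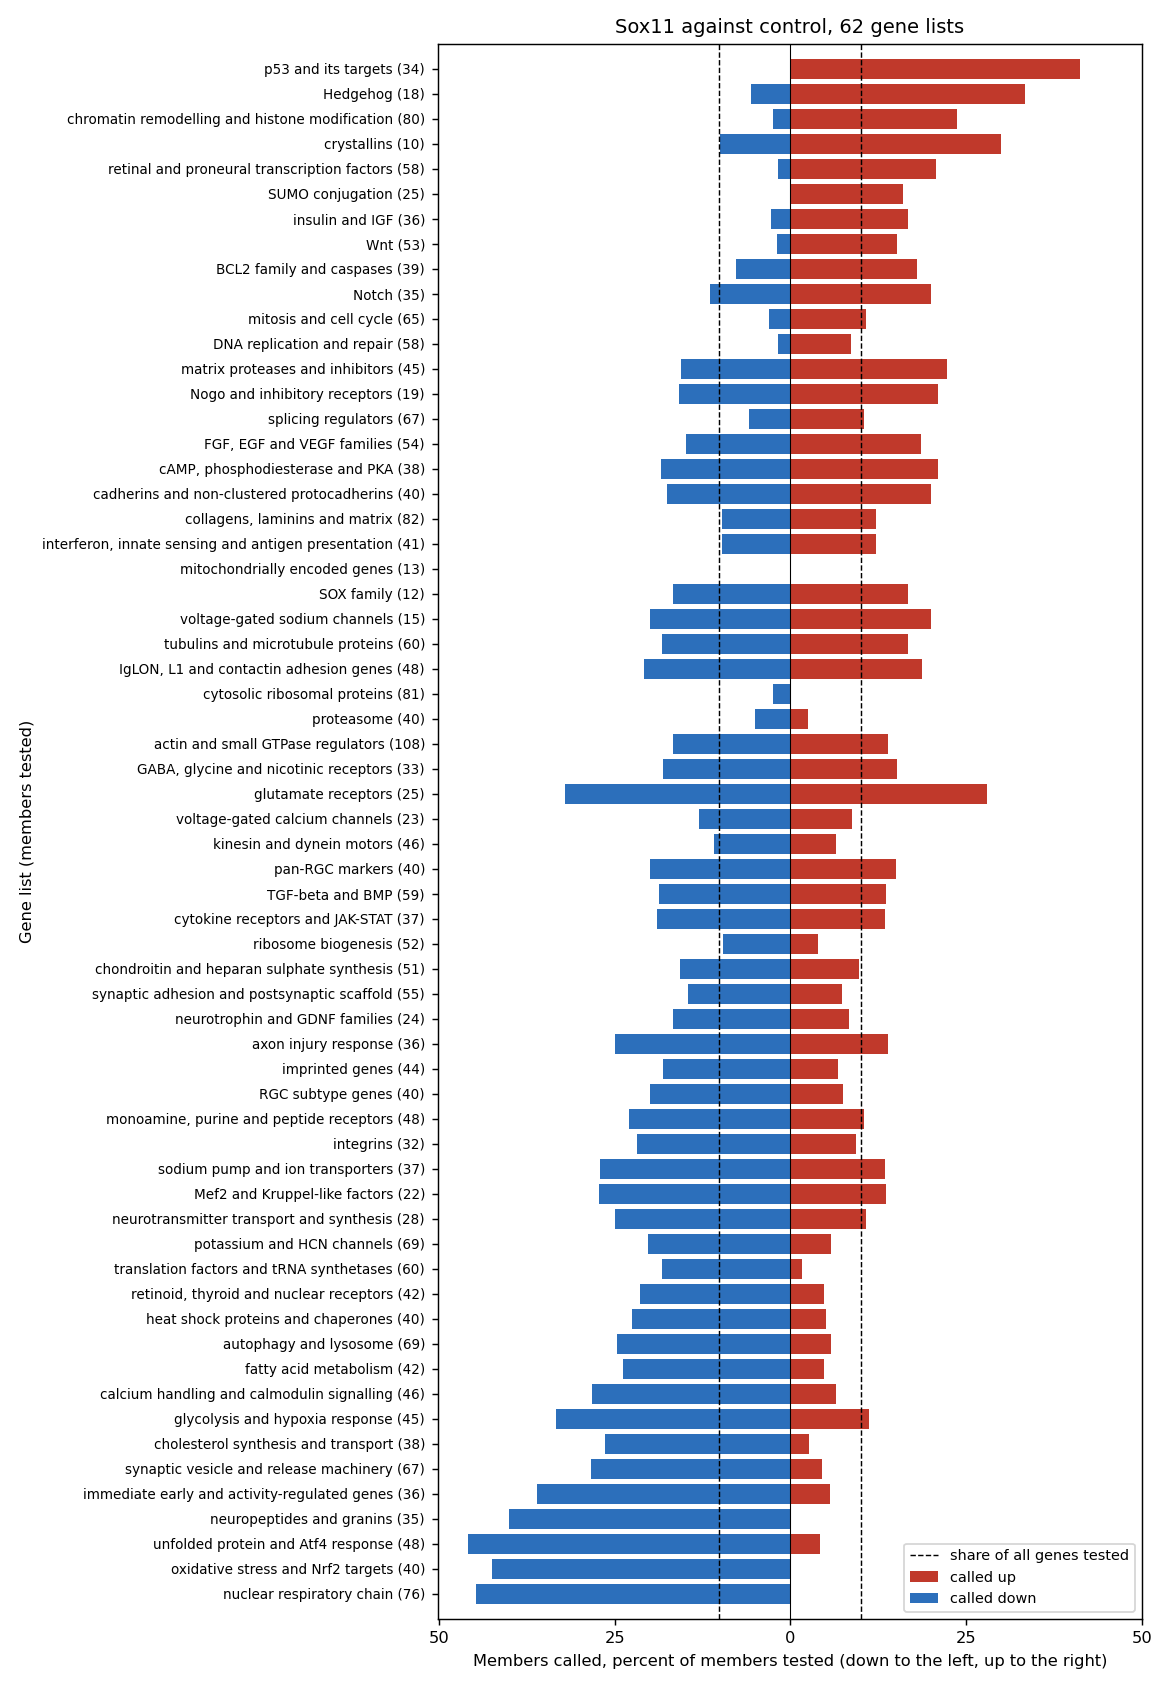
Share of the tested members of each of 62 gene lists that rose (red, to the right) or fell (blue, to the left) with Sox11 against control, in percent, with the number of members tested in brackets; dashed lines mark the shares of all genes tested, 9.96% up and 10.2% down. Among p53 and its targets 14 of 34 rose and 0 fell, and in the nuclear respiratory chain 34 of 76 fell and 0 rose.

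The 10 largest rises, among genes averaging 1 CPM or more and without overlap of the groups, were, apart from Sox11, in genes of very low level in control cells. Kctd12b, a relative of the auxiliary subunits of GABA-B receptors, was at 0.286 and 0.0259 CPM in control and 23.9 and 53.1 CPM with Sox11 (log2 fold change 8.51, SE 2.05, adjusted p = 0.033). Cryba2, a lens crystallin gene, had 0 counts in both control libraries and was at 3.89 and 5.91 CPM with Sox11, which is at least 53-fold higher against a floor of 3 counts per control library. Vxn, which encodes vexin, a protein that promotes neurogenesis in the embryo, was at 0.394 and 0.285 CPM in control and 77.4 and 129 CPM with Sox11 (log2 fold change 8.18, SE 1.06, adjusted p = 0.012). Vwa2, a secreted protein of basement membranes, was at 0.215 and 0.0519 against 12.6 and 23.4 CPM. The lack of overlap in these genes was a condition of their choice.
Usp18, which removes the ubiquitin-like protein ISG15 and restrains interferon signalling, was at 0.286 and 0.0519 CPM in control and 16.8 and 17.5 CPM with Sox11 (log2 fold change 7.04, SE 0.86, adjusted p = 0.011). Gbp9, an interferon-inducible GTPase, was at 0.107 and 0.0778 against 4.77 and 12 CPM. Among genes that were higher in absolute terms, Vcan, the chondroitin sulphate proteoglycan versican, was at 1.54 and 2.31 CPM in control and 130.3 and 295 CPM with Sox11, a 101-fold rise (log2 fold change 6.65, SE 0.84, adjusted p = 0.011). Enpp3, an ectonucleotidase, was at 0.107 and 0.0519 against 3.49 and 5.91 CPM, Sec14l5, a lipid-transfer protein relative, was at 0.143 and 0.0259 against 3.75 and 3.32 CPM, and Sox11 completes the 10. Where a control library held only a few counts, the fitted fold depends on the small value added to counts before taking logs, and the levels are the better guide. Whether reads were counted by strand is not given in the sources used here, so the counts of genes that overlap another are uncertain. For Vxn 14% of the exon sequence is shared with a gene on the other strand, and of the genes named below the same holds at 10% or more for Bad, Bdnf, Cdkn1c, Cebpb, Dll1, Kcnk2, Kif7, Klf7, Nefm, P2ry1, Shh, Slc6a9, Syn3, Syt12 and Tap2, and on the same strand for Pik3r3 and Spp1.

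The 10 largest falls were mostly in genes of low level. Mmp12, a macrophage metalloelastase, stood out by its level, at 52.9 and 35.5 CPM in control and 1.97 and 1.18 CPM with Sox11, a 28.5-fold fall (log2 fold change -4.83, SE 0.58, adjusted p = 0.011). Plaur, the urokinase receptor, was at 1.79 and 3.48 against 0 and 0.452 CPM (log2 fold change -4.70, SE 1.28, adjusted p = 0.044). Gdf10, a BMP-family ligand, had 106 and 51 counts in control and 2 and 0 with Sox11, a ratio of 70.3 with a 95% exact interval of 19.5 to 596 that covers counting error only. Receptors for peptides and catecholamines were among the falls, with Crhr2, a receptor for corticotropin-releasing factor and urocortins, at 2.79 and 3.66 against 0.692 and 0 CPM and Adra1d, an alpha-1 adrenergic receptor, at 7.16 and 3.42 against 0.328 and 0.0302 CPM.
Lmcd1, a LIM-domain cofactor of GATA factors, was at 4.87 and 2.52 against 0.182 and 0.0603 CPM. Srpk3, a kinase of splicing factors, was at 2.79 and 2.98 against 0.582 and 0 CPM, Sgk2, a kinase related to those induced by serum and glucocorticoid, at 1.68 and 2.72 against 0.255 and 0 CPM, and A4galt, a glycolipid synthase, at 2.43 and 3.68 against 0.4 and 0 CPM. Nanp, a phosphatase of sialic acid synthesis, was at 2.33 and 2.91 against 0.655 and 0 CPM. Lack of overlap was a condition for choosing these 10 genes as well. Of them, 7 were at 0 in at least 1 Sox11 library, so that the fitted folds are again not bounds.

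**Figure D2:**
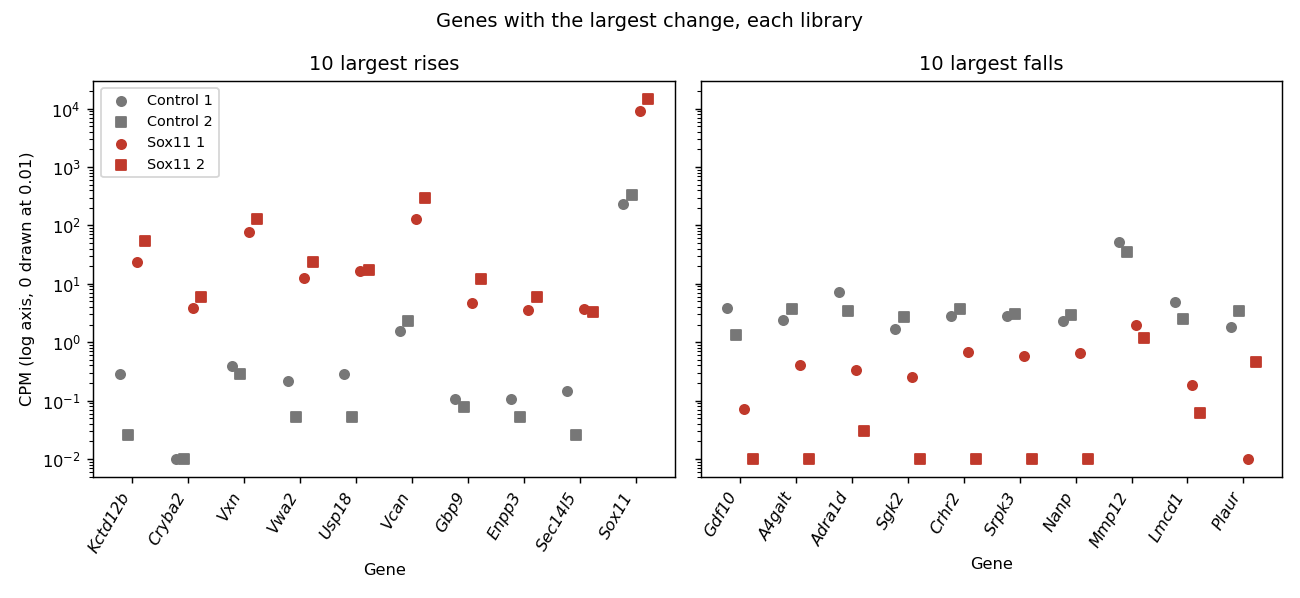
CPM (log axis, 0 drawn at 0.01) of the genes with the 10 largest rises and the 10 largest falls in each control (grey) and Sox11 (red) library, circles for replicate 1 and squares for replicate 2. Genes were chosen among those without overlap of the groups, for example Vcan at 130.3 and 295 CPM with Sox11 against 1.54 and 2.31 CPM in control.

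Promoter sequence was examined because Sox proteins bind variants of a short A/T-rich element. The letters AACAAAG or AACAATG on either strand were present in 10.1% of 1661 RefSeq promoters (GRCm38.p6, 250 bases before to 50 bases after a start) of genes that rose, in 3.20% of 1624 promoters of genes that fell, and in 5.81% of 14684 promoters of all genes tested. Over all 32851 listed promoters, genes not tested here included, the share was 9.36%. AACAAAG alone was in 6.68%, 2.22% and 3.88%, and AACAATG alone in 3.67%, 0.985% and 1.99%. The median GC content of the promoters was 60.7%, 61.7% and 60.7%. A match is a description of the letters and not a binding site. Of the 10 genes with the largest rises 6 had a listed promoter, and none of those 6 promoters held a match. Of the 10 genes with the largest falls 7 had one, and 1 of them, Mmp12, held a match. Among the genes chosen to be named, 118 that rose and 121 that fell had a listed promoter, and 12 and 6 of them had a match in the 250 bases before the start. Stretches around the match are shown for 6 genes that rose and are described below, an enzyme of histone methylation (Ezh2), 3 transcription factors (Myt1, Mef2c, Nr4a2), a potassium channel (Kcnk2) and a crystallin relative (Crybg1), and for Mmp12 and the receptor Acvr1c, which fell. Each runs 5′ to 3′ on the strand of the gene with the match in capitals, which is the reverse complement where the motif lies on the opposite strand (Mef2c, Myt1 and Nr4a2).
Ezh2, chr6:47595216-47595280, minus strand: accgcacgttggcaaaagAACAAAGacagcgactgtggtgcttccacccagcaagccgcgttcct
Myt1, chr2:181763143-181763229, plus strand: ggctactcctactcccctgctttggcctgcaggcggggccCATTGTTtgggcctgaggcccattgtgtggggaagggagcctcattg
Mef2c, chr13:83573413-83573499, plus strand: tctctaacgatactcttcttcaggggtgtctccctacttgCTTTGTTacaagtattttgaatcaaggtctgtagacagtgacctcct
Nr4a2, chr2:57124192-57124253, minus strand: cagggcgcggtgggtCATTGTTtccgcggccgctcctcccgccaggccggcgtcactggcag
Kcnk2, chr1:189343354-189343404, minus strand: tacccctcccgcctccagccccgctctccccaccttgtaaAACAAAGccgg
Crybg1, chr10:44005007-44005093, minus strand: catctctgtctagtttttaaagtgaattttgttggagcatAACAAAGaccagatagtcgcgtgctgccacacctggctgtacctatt
Mmp12, chr9:7344209-7344295, plus strand: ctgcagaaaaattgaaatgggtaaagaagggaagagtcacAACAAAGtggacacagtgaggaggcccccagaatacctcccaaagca
Acvr1c, chr2:58324912-58324998, minus strand: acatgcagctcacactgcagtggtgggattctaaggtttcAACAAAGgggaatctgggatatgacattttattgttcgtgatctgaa

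In energy metabolism falls outnumbered rises, most uniformly in oxidative phosphorylation. The respiratory chain passes electrons through membrane complexes to oxygen and drives ATP synthase, and most of its subunits are encoded in the nucleus. Of 76 nuclear subunits and assembly genes tested, 34 fell and 0 rose, and all 76 had a log2 fold change below 0, with and without Sox11 replicate 2. The median log2 fold change was -0.63 (-0.54 without that library), and the median log2 difference was -0.32 between the replicates numbered 1 and -0.89 between those numbered 2. The falls spanned the chain, with 14 subunits of complex I, Sdhb and Sdhd of complex II, 6 of complex III with cytochrome c, 4 of cytochrome c oxidase and 7 of ATP synthase. Atp5g1, a c-ring subunit of ATP synthase, was at 199 and 226 CPM in control and 98.1 and 67.2 CPM with Sox11 (log2 fold change -1.38, SE 0.22, adjusted p = 0.014). Atp5d was at 247 and 266 against 119 and 91.3 CPM (log2 fold change -1.30, SE 0.17, adjusted p = 0.012) and Cox8a at 282 and 289 against 158 and 105 CPM (log2 fold change -1.15, SE 0.21, adjusted p = 0.018). As in every gene called, the groups did not overlap in these 3. The 13 genes of the mitochondrial genome did not follow, with 0 calls and a median of 0.43 (0.19 without Sox11 replicate 2). Of these, mt-Co1 was at 7283 and 7533 CPM in control and 8428 and 8779 CPM with Sox11 (adjusted p = 0.317), and mt-Co2 at 1741 and 2177 against 1889 and 2289 CPM (adjusted p = 0.732), with the sign of mt-Co2 turned without Sox11 replicate 2 (-0.036) or control replicate 1 (-0.065). Nuclear respiratory genes are short, with a median transcript length of 724 bases, and length moved with the fold change across all genes (below). The 1706 other genes of the same length range had a median of -0.24, with 10.7% called down and 2.99% up.

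In glycolysis and the hypoxia response 15 of 45 genes fell and 5 rose (median -0.44, or -0.45 without Sox11 replicate 2). The falls included most steps of the pathway, Slc2a1, Hk1, Gpi1, Aldoa, Aldoc, Tpi1, Gapdh, Pgk1, Pgam1, Eno1, Eno2 and Ldha, along with Ndrg1, P4ha2 and Vegfa. Aldoa, the main aldolase of this pathway, was at 1045 and 1130.5 CPM in control and 384 and 182 CPM with Sox11 (log2 fold change -2.03, SE 0.36, adjusted p = 0.017), and Eno2, the neuronal enolase, was at 712 and 670.0 against 262 and 133 CPM (log2 fold change -1.88, SE 0.33, adjusted p = 0.017). Aldoc fell most, from 8.3 and 8.02 to 1.2 and 0.241 CPM. Against this direction, Pfkfb3, which makes an activator of phosphofructokinase, was at 41.6 and 30.7 against 93.6 and 109 CPM (log2 fold change 1.51, SE 0.21, adjusted p = 0.012), and Mxi1 (1.54), Kdm3a (1.30), Ldhb and Ddit4 also rose. In fatty acid metabolism 10 of 42 fell and 2 rose. Ppargc1b and Ppargc1a, coactivators that drive mitochondrial genes, were at 12 and 5.27 against 1.67 and 0.513 CPM and 59.4 and 35.8 against 22.9 and 11 CPM, and Fabp3, a fatty acid carrier, at 109 and 90.5 against 41.9 and 13.9 CPM. Elovl2, which elongates very long polyunsaturated fatty acids, rose to 74.3 and 113 CPM from 10.9 and 18.3 (log2 fold change 2.66, SE 0.31, adjusted p = 0.011), and Cpt1c was the other rise. In cholesterol synthesis and transport 10 of 38 fell and 1 rose (Soat1, which esterifies cholesterol), with a median of -0.28. The median difference of this list from the control mean was -0.53 in Sox11 replicate 1. In Sox11 replicate 2 it was -0.035, between the control libraries at -0.086 and 0.086. Cyp46a1, which hydroxylates cholesterol in neurons, and Mvk, a kinase of the mevalonate pathway, fell by 1.55 and 1.35 on the log2 scale. All of these calls, like those below, were lost by limma-voom without Sox11 replicate 2.

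In the lists of the unfolded protein response, oxidative stress, heat shock proteins and axon injury, falls also outnumbered rises. The p53 list and that of the BCL2 family and caspases, described below, had more rises than falls. Of 48 genes of the unfolded protein and Atf4 response, 22 fell and 2 rose (median -0.65, or -0.51 without Sox11 replicate 2). This response expands the folding capacity of the endoplasmic reticulum and, through Atf4, amino acid supply. Chaperones of the endoplasmic reticulum (Hspa5, Hsp90b1, Calr, Canx, Dnajb11, Manf, Sdf2l1), its transcription factor Xbp1, the degradation factors Herpud1 and Syvn1, serine and one-carbon enzymes (Phgdh, Psph, Shmt2, Mthfd2), amino acid transporters (Slc7a1, Slc7a5, Slc3a2) and the regulators Atf5, Cebpb, Chac1, Trib3 and Nupr1 made up the 22. Trib3, a pseudokinase induced by Atf4, was at 4.83 and 6.05 CPM in control and 1.42 and 0.513 CPM with Sox11 (log2 fold change -2.70, SE 0.65, adjusted p = 0.032). Phgdh, which starts serine synthesis, was at 11.6 and 5.73 against 1.78 and 0.905 CPM, and Cebpb at 29.5 and 22.8 against 6.44 and 2.84 CPM (log2 fold change -2.62, SE 0.39, adjusted p = 0.013). The rises were Sesn2, which is also a p53 target (44.9 and 47.6 against 141 and 151 CPM), and Ern1, a sensor of unfolded protein (1.13).

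Among 40 genes of oxidative stress and Nrf2 targets, 17 fell and 0 rose (median -0.61, or -0.51 without Sox11 replicate 2). Metallothioneins, which bind zinc and copper, led this group. Mt3, the neural form, was at 68 and 87.5 CPM in control and 10.0 and 3.44 CPM with Sox11, a 13.6-fold fall (log2 fold change -3.76, SE 0.47, adjusted p = 0.011). Mt2 was at 7.19 and 5.92 against 1.35 and 0.543 CPM, though 73% of its exon sequence is shared with a gene on the other strand, and Nqo1, a quinone reductase, was at 1.32 and 3.32 against 0.291 and 0.302 CPM. Glutathione peroxidases Gpx3 and Gpx4, peroxiredoxins Prdx3, Prdx4 and Prdx5, Srxn1, Gsr, Gclm, Gstp1, Sod2, Mt1, Fth1, Tfrc and Aifm2 were the other falls. Of 40 heat shock proteins and chaperones 9 fell and 2 rose, Hsf2 and Dnajc6. The small heat shock proteins Hspb8 (29.9 and 31.4 against 5.9 and 1.06 CPM, log2 fold change -3.69, SE 0.60, adjusted p = 0.014) and Hspb1 (29.3 and 24.1 against 7.39 and 1.87 CPM) and the co-chaperone Bag3 (19 and 16.7 against 3.38 and 1.57 CPM) were the largest falls there. In the axon injury response 9 of 36 fell and 5 rose, Sox11 among the latter. Tnfrsf12a, the receptor Fn14, was at 50.1 and 62.5 CPM in control and 5.46 and 3.95 CPM with Sox11 (log2 fold change -3.60, SE 0.32, adjusted p = 0.0075), and Sprr1a, a regeneration-associated gene, was at 7.23 and 18.4 against 0.837 and 1.36 CPM. Atf3, an injury-induced transcription factor, was at 29.9 and 38.6 against 4.99 and 4.74 CPM (log2 fold change -2.81, SE 0.34, adjusted p = 0.011). Nmnat2, an enzyme that maintains axons, and Mapk8, a JNK kinase, rose by 0.95 and 0.82 (log2).

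In protein synthesis and turnover the share of calls varied from list to list. Of 81 cytosolic ribosomal protein genes 0 rose and 2 fell, Rpl22l1 (42.2 and 88.7 against 23.7 and 21.4 CPM) and Rpl41 (381 and 480.2 against 275 and 209 CPM). Their median of -0.19 turned positive without control replicate 2 (0.087). In ribosome biogenesis 2 of 52 rose and 5 fell, with the Myc family divided. Mycl was at 3.22 and 3.53 CPM in control and 25.7 and 41.8 CPM with Sox11 (log2 fold change 3.28, SE 0.40, adjusted p = 0.011) and Mycn at 47.7 and 44.4 against 70.8 and 70.7 CPM (log2 fold change 0.62, SE 0.15, adjusted p = 0.031), whereas Myc was at 7.23 and 12.4 against 4.33 and 2.29 CPM (log2 fold change -1.65, SE 0.44, adjusted p = 0.041). Of 60 translation factors and tRNA synthetases 11 fell and 1 rose, Eef2k, the kinase that inhibits elongation (0.82). Eif4ebp1, a repressor of cap-dependent translation, was at 10.3 and 9.39 against 2.69 and 1.45 CPM, and Eef1a2, the elongation factor of mature neurons, at 655 and 666 against 372 and 299 CPM. The proteasome list had 1 rise (Psme4) and 2 falls (Psmb10 and Psmc3) among 40. In autophagy and lysosome 17 of 69 fell and 4 rose. Tfeb, the transcription factor of lysosomal genes, was at 5.83 and 3.4 CPM in control and 0.546 and 0.0603 CPM with Sox11 (log2 fold change -4.48, SE 0.97, adjusted p = 0.025), Tpp1, a lysosomal peptidase, was at 44.2 and 27.2 against 10.7 and 7.45 CPM, and Gusb at 28.8 and 37.8 against 15.9 and 11.8 CPM. Of 25 genes of SUMO conjugation 4 rose, among them the E3 ligases Pias1 (0.58) and Pias2 (0.90) and the protease Senp7 (0.98), and 0 fell.

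The p53 group was the list with the highest share of rises. p53 is a transcription factor induced by DNA damage and other stress that acts on growth arrest and apoptosis. Of 34 genes, 14 rose and 0 fell (median 0.71, or 0.67 without Sox11 replicate 2). The median log2 difference was 0.74 between the replicates numbered 1 and 0.63 between those numbered 2. The rises were Eda2r, Pmaip1, Psrc1, Trp53inp1, Pidd1, Ccng1, Sesn2, Plk2, Phlda3, Aen, Xpc, Ddit4, Mdm4 and Trp53 itself. Eda2r, a death receptor for ectodysplasin, was at 5.47 and 2.15 CPM in control and 46.6 and 44.9 CPM with Sox11, a 13.9-fold rise (log2 fold change 3.8, SE 0.44, adjusted p = 0.011). Pmaip1 (Noxa), a BH3-only protein that opposes Mcl1, was at 2.08 and 4.33 CPM in control and 32 and 39.8 CPM with Sox11 (log2 fold change 3.52, SE 0.38, adjusted p = 0.011), and Psrc1 was at 0.751 and 3.19 against 17.2 and 14.3 CPM. As in every gene called up, the Sox11 libraries lay above both control libraries in these 3. Among the BCL2 family and caspases 7 of 39 rose and 3 fell. Apaf1, which assembles the apoptosome, was at 29.4 and 38.1 against 84.8 and 110.4 CPM (log2 fold change 1.52, SE 0.22, adjusted p = 0.013), and Bmf, another BH3-only protein, at 17.2 and 12.6 against 37.9 and 41.8 CPM. Tnfrsf1a, the main receptor for TNF, was at 57.6 and 32.6 CPM in control and 15.3 and 1.39 CPM with Sox11 (log2 fold change -3.32, SE 0.88, adjusted p = 0.041), and Cycs and Bad also fell (-0.67 and -0.62).

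Among chromatin genes rises outnumbered falls. Of 80 genes of chromatin remodelling and histone modification 19 rose and 2 fell (median 0.37, or 0.30 without Sox11 replicate 2). BAF complex members (Smarca2, Smarcc1, Smarcc2, Smarcd1, Smarce1, Bcl7a, Dpf1, Ss18l1), histone demethylases (Kdm1a, Kdm2b, Kdm4a, Kdm4b, Kdm5b), the methyltransferases Ezh2 and Ehmt1, Hdac2, Hdac7, Smarca5 and Dnmt3b were the rises. Ezh2, which places the repressive mark H3K27me3, was at 4.76 and 7.42 CPM in control and 26 and 49.3 CPM with Sox11 (log2 fold change 2.57, SE 0.43, adjusted p = 0.015), and Smarca2 was at 75.5 and 66.4 against 179 and 241 CPM (log2 fold change 1.55, SE 0.20, adjusted p = 0.012). The de novo DNA methyltransferases moved apart, with Dnmt3b at 0.573 and 0.519 against 1.71 and 2.59 CPM and Dnmt3a at 403 and 198 against 144 and 97.9 CPM (log2 fold change -1.26, SE 0.34, adjusted p = 0.042). Among 67 splicing regulators 7 rose and 4 fell. The RNA-binding factor Rbfox2 was at 585 and 518 against 989 and 1180.5 CPM (log2 fold change 0.97, SE 0.16, adjusted p = 0.014) and Rbfox3, the NeuN antigen of mature neurons, at 87.6 and 98.1 against 53.9 and 29.6 CPM (log2 fold change -1.23, SE 0.26, adjusted p = 0.025), in opposite directions.

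Of 58 retinal and proneural transcription factors 12 rose and 1 fell (median 0.48, or 0.34 without Sox11 replicate 2). Bcl11a, a zinc-finger repressor of developing neurons, was at 7.41 and 6.54 CPM in control and 31.8 and 54.1 CPM with Sox11 (log2 fold change 2.59, SE 0.38, adjusted p = 0.013), its relative Bcl11b at 14.4 and 7.13 against 25.9 and 30.8 CPM, and Nhlh2, a basic helix-loop-helix factor, at 23.3 and 23.3 against 69 and 78.8 CPM. Nfic, a nuclear factor I gene, fell to 29.4 and 19.2 CPM from 80.0 and 50.9. Of 12 SOX family genes 2 rose, Sox11 among them, and 2 fell. Sox13 was the other rise (0.716 and 1.19 against 6.44 and 12.6 CPM, log2 fold change 3.25, SE 0.58, adjusted p = 0.017), and the other SoxC genes, Sox4 (304 and 309 against 221 and 209 CPM) and Sox12 (186 and 162 against 102 and 90.3 CPM), fell. Sox4 shares 55% of its exon sequence with a gene on the other strand. Among Mef2 and Kruppel-like factors 3 of 22 rose, Mef2c (6.48 and 5.03 against 11.6 and 10.1 CPM), Klf7 (232 and 218 against 308 and 369 CPM) and Sp4 (0.95), and 6 fell, led by Klf2 (11.5 and 7.71 against 3.6 and 0.452 CPM), Klf16 (-1.94) and Klf5 (-1.84). Cell cycle genes showed few calls. In mitosis and cell cycle 7 of 65 rose and 2 fell, and in DNA replication and repair 5 of 58 rose and 1 fell. Cdc25a, a phosphatase that activates cyclin-dependent kinases, was at 18.9 and 23.5 against 46.6 and 62.9 CPM, the kinase inhibitor Cdkn1c at 14.9 and 16.4 against 30.5 and 47.2 CPM, and the replication gene Mcm7 at 5.65 and 7.58 against 15.2 and 25.9 CPM.

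**Figure D3:**
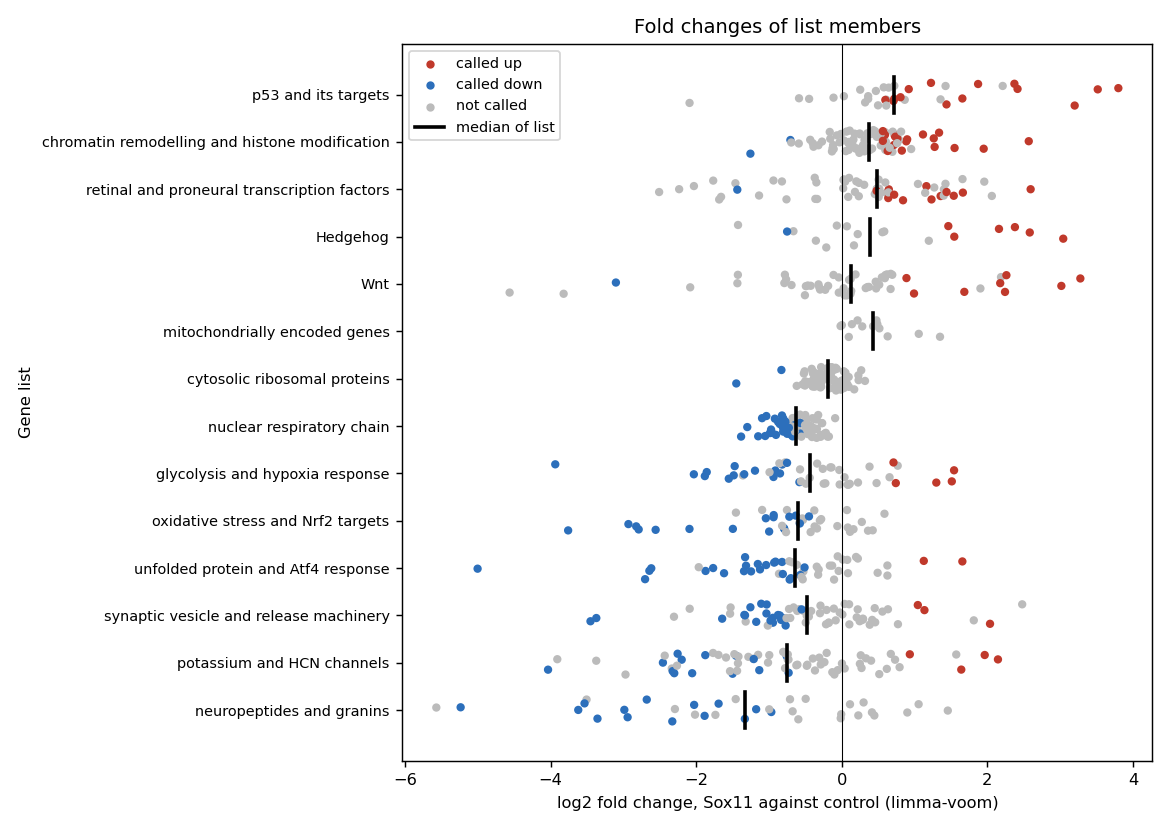
Log2 fold change (Sox11 against control, limma-voom) of every tested member of 14 gene lists, with genes called up in red, called down in blue and not called in grey, and the median of each list as a black bar. All members of the nuclear respiratory chain lie below 0 (median -0.63), while 12 of the 13 mitochondrially encoded genes lie above 0 without a call.

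In neurosecretory and synaptic lists falls outnumbered rises. Of 35 neuropeptide and granin genes 14 fell and 0 rose (median -1.33, or -0.84 without Sox11 replicate 2). The falls were in peptide precursors (Adcyap1, Nppb, Calca, Tac1, Ucn, Cartpt, Pomc, Nts, Nxph3), in granins and the related Vgf (Chga, Scg2), in the processing enzyme Pcsk1 and in Crhbp. Adcyap1, which encodes the peptide PACAP, was at 418 and 367 CPM in control and 51 and 20.6 CPM with Sox11, a 12.3-fold fall (log2 fold change -3.62, SE 0.52, adjusted p = 0.013). Nppb, the natriuretic peptide BNP, was at 5.65 and 13.4 against 1.53 and 0.422 CPM, and Calca, the source of CGRP, at 3.33 and 10.3 against 0.946 and 0.392 CPM. Among 48 monoamine, purine and peptide receptors 11 fell and 5 rose (median -1.01, or -0.53 without Sox11 replicate 2). Sstr3, a somatostatin receptor, was at 7.91 and 5.53 against 0.764 and 0.211 CPM (log2 fold change -4.0, SE 0.62, adjusted p = 0.013), while the cannabinoid receptor Cnr1 was at 49.9 and 40.3 against 68.4 and 105 CPM, and Npy1r (1.46) and P2ry1 (0.92) also rose. In neurotransmitter transport and synthesis 7 of 28 fell and 3 rose. Acetylcholinesterase (Ache) was at 387 and 385 against 141 and 51.3 CPM (log2 fold change -2.18, SE 0.45, adjusted p = 0.023), and the glycine transporter Slc6a9 at 27.6 and 17.5 against 6.92 and 3.62 CPM. Glul, glutamine synthetase, was at 105 and 97.2 CPM in control and 271 and 297 CPM with Sox11 (log2 fold change 1.49, SE 0.15, adjusted p = 0.0083), and the choline transporter Slc5a7 at 10.9 and 5.5 against 24.5 and 29.7 CPM.

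Of 67 genes of synaptic vesicles and release 19 fell and 3 rose (median -0.48, or -0.30 without Sox11 replicate 2). Syt12 was at 28.2 and 33.6 CPM in control and 5.97 and 1.6 CPM with Sox11 (log2 fold change -3.37, SE 0.57, adjusted p = 0.016), Doc2a, a calcium sensor of release, at 6.3 and 4.23 against 1.02 and 0.211 CPM, and Rab3d at 77.8 and 68.2 against 34.9 and 16.1 CPM. Other falls included Syp, Sv2a, Syn2, Vamp2, Nsf, Rab3a, Cplx1, Cplx2, Syngr1, Syngr3, Syt7, Syt13, Rims4 and Slc17a6. The rises were Syn3 (23.2 and 5.37 against 36.4 and 48.9 CPM), Rab3c (426 and 328 against 699 and 968 CPM) and Unc13b (1.04). Doc2a shares 39% of its exon sequence with a gene on the other strand. Among 55 genes of synaptic adhesion and postsynaptic scaffold 4 rose and 8 fell, for example Slitrk1 (1.40) and Clstn3 (-1.18). Glutamate receptors moved in both directions, with 7 of 25 up and 8 down. The AMPA receptor subunit Gria3 was at 19.5 and 12.8 against 49.4 and 53.8 CPM (log2 fold change 1.74, SE 0.22, adjusted p = 0.011) and Gria1 at 137 and 168 against 62.2 and 18.9 CPM (log2 fold change -2.18, SE 0.56, adjusted p = 0.038). Grin2b, the NMDA receptor subunit typical of young neurons, was at 68.3 and 41.8 against 111 and 128 CPM. In the list of GABA, glycine and nicotinic receptors 5 of 33 rose and 6 fell. Its median of -0.41 turned positive without Sox11 replicate 2 (0.11). Glra2, the glycine receptor subunit of immature neurons, was at 24.8 and 24.8 against 66.7 and 111 CPM, and the nicotinic subunits Chrna6 and Chrnb3 at 9.48 and 8.04 against 1.56 and 0.965 CPM and 98.1 and 51.9 against 27.6 and 9.83 CPM.

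Ion channels divided by subunit. Of 15 genes of voltage-gated sodium channels 3 rose and 3 fell. Scn3a, the sodium channel of embryonic neurons, was at 156 and 88.5 CPM in control and 240.1 and 322 CPM with Sox11 (log2 fold change 1.24, SE 0.29, adjusted p = 0.030), and Scn9a and the subunit Scn3b rose by 0.84 and 1.13 (log2). The subunit Scn2b was at 68.3 and 50.2 CPM in control and 34.6 and 24.1 CPM with Sox11 (log2 fold change -1.03, SE 0.23, adjusted p = 0.027), and Unc80, part of the sodium leak channel, was at 53.4 and 28.2 against 9.1 and 3.98 CPM. Among 23 calcium channel genes 2 rose and 3 fell, and the R-type channel Cacna1e was at 16.6 and 11.5 against 79.9 and 156 CPM (log2 fold change 3.04, SE 0.40, adjusted p = 0.012). Potassium and HCN channels had more falls than rises, with 14 of 69 down and 4 up. Their median of -0.76 was -0.25 without Sox11 replicate 2, and the median difference from the control mean was -0.25 in Sox11 replicate 1 and -1.03 in replicate 2, so that list was much closer to control in replicate 1. Kcnab1, an auxiliary subunit, was at 46.9 and 42.7 against 16.5 and 4.34 CPM (log2 fold change -2.46, SE 0.50, adjusted p = 0.022), and the leak channel Kcnk13 at 4.76 and 2.41 against 0.291 and 0.121 CPM. Kcnk2 (TREK-1), also a leak channel, was at 7.98 and 8.64 against 29.8 and 35.4 CPM (log2 fold change 1.96, SE 0.22, adjusted p = 0.011), and Kcnh4 at 6.51 and 7.89 against 25.4 and 39.9 CPM. In the list of sodium pump and ion transporters 10 of 37 fell and 5 rose. Fxyd7, a regulator of the sodium pump, was at 83 and 60.1 against 14.9 and 1.21 CPM (log2 fold change -4.16, SE 0.91, adjusted p = 0.026), Slc12a7, a potassium-chloride cotransporter, at 15.5 and 13.4 against 75.2 and 65.2 CPM (log2 fold change 2.29, SE 0.19, adjusted p = 0.0075), and Ano3 at 2.18 and 4.33 against 20.3 and 24.5 CPM.

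Of 46 genes of calcium handling 13 fell and 3 rose, with the sodium-calcium exchangers Slc24a3 at 559 and 327 against 202 and 81.7 CPM and Slc24a2 at 74.4 and 50.3 against 29.4 and 13.2 CPM. Genes of cAMP signalling moved both ways, 8 of 38 up and 7 down. Prkar2b, a regulatory subunit of PKA, was at 129.6 and 145 against 346 and 454 CPM (log2 fold change 1.53, SE 0.18, adjusted p = 0.011), Pde4d at 70.1 and 23.8 against 109 and 130.2 CPM, and Pde8b at 28.7 and 17.9 against 4.19 and 3.29 CPM (log2 fold change -2.59, SE 0.43, adjusted p = 0.015). Among 36 immediate early and activity-regulated genes 13 fell and 2 rose (median -0.50, or -0.49 without Sox11 replicate 2). Nptx2, a secreted pentraxin that clusters AMPA receptors, was at 129.8 and 254 CPM in control and 33.2 and 26.3 CPM with Sox11 (log2 fold change -2.62, SE 0.33, adjusted p = 0.011). Dusp6, a phosphatase of ERK, and Nr4a2 (Nurr1) were the rises, at 51.1 and 46.5 against 74.6 and 96.3 CPM and 5.44 and 3.19 against 11.3 and 13.9 CPM.

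**Figure D4:**
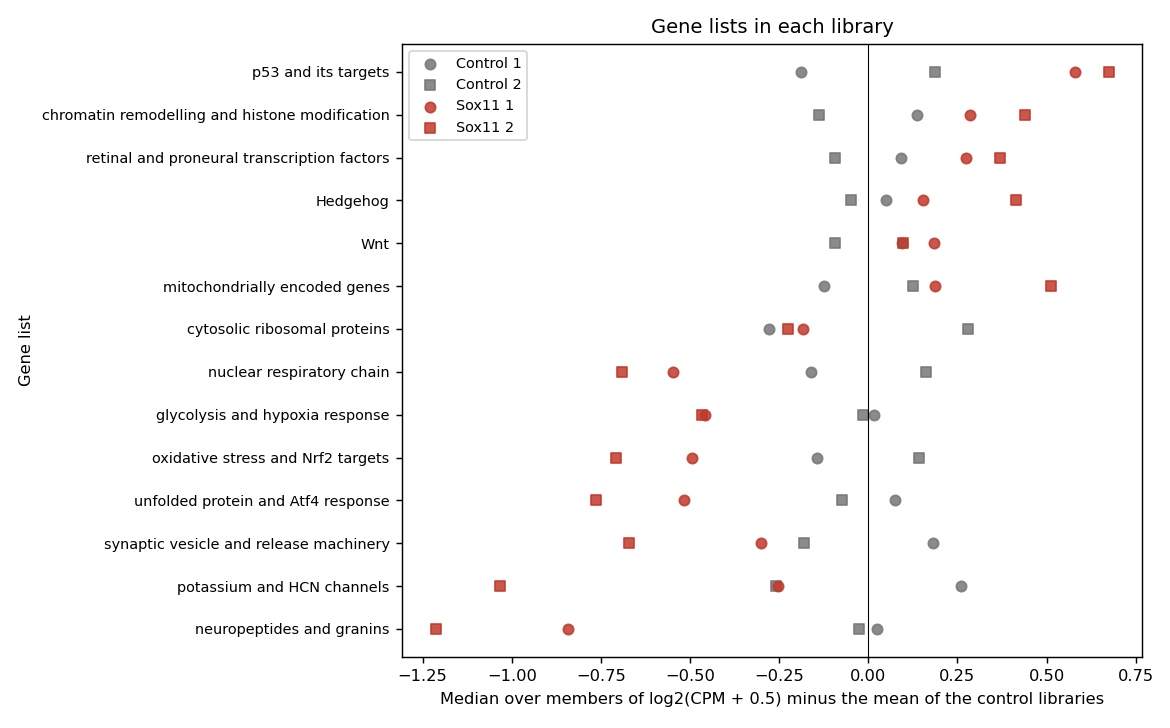
Median over the members of 14 gene lists of log2(CPM + 0.5) in each control (grey) and Sox11 (red) library, minus the mean of the control libraries, circles for replicate 1 and squares for replicate 2. Neuropeptides and granins were at -0.84 and -1.21 in the Sox11 libraries, whereas potassium and HCN channels in Sox11 replicate 1 (-0.25) were level with control replicate 2 (-0.26).

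Among developmental signalling pathways, Hedgehog (33.3%), Notch (20%), Wnt (15.1%) and TGF-beta and BMP (13.6%) had shares of rises above that of all genes (9.96%). Hedgehog and Wnt had 1 fall each. Shares of falls in Notch (11.4%) and in TGF-beta and BMP (18.6%) were also above that of all genes (10.2%). In the Hedgehog pathway the ligand relieves Smoothened from inhibition. Of 18 genes 6 rose, among them the ligand Dhh, the signal transducer Smo, the co-receptor Cdon, and Kif7 and Gpr161 of the primary cilium. Smo was at 3.61 and 3.87 CPM in control and 22.9 and 22.2 CPM with Sox11, a 5.99-fold rise (log2 fold change 2.58, SE 0.26, adjusted p = 0.0083). The fall was in the ligand Shh, which RGCs secrete, at 36.3 and 44.5 against 26.6 and 21.8 CPM (log2 fold change -0.75, SE 0.20, adjusted p = 0.044). Of 53 Wnt genes 8 rose and 1 fell, with a median of 0.12 (0.17 without Sox11 replicate 2). The median log2 difference of the Wnt list was -0.029 between the replicates numbered 1, with 28 of 53 below 0. It was 0.19 between those numbered 2. The ligands Wnt3 (4.83 and 4.31 against 17.7 and 26.3 CPM) and Wnt5b, the receptor Fzd3 (34.7 and 7.32 against 59.4 and 82 CPM), the co-receptors Lrp5 and Lrp6, the feedback gene Axin2 and the antagonists Wif1 and Draxin (19 and 25.2 against 142 and 228 CPM, log2 fold change 3.02, SE 0.31, adjusted p = 0.0091) were the rises, and the receptor Fzd9 was at 10.8 and 12 against 2.88 and 0.664 CPM (log2 fold change -3.10, SE 0.56, adjusted p = 0.017). Notch genes had 7 rises and 4 falls among 35. Rbpj, the transcription factor of the pathway, was at 35.1 and 32.2 against 93.9 and 133 CPM (log2 fold change 1.73, SE 0.21, adjusted p = 0.011), the ligand Dll1 at 10.2 and 7.11 against 25 and 35.9 CPM, and the gamma-secretase subunit Psen2 at 79.8 and 74.9 against 37.9 and 19.7 CPM (log2 fold change -1.52, SE 0.31, adjusted p = 0.022).

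In TGF-beta and BMP signalling 8 of 59 rose and 11 fell, and its median of -0.096 was 0.12 without Sox11 replicate 2. The receptors Tgfbr1 (30.6 and 30.7 against 76.8 and 101 CPM, log2 fold change 1.52, SE 0.20, adjusted p = 0.011) and Acvr2a (50.4 and 53.4 against 121 and 193 CPM) rose, while the ligand Bmp6 (25.1 and 19.8 against 2.51 and 1.15 CPM, log2 fold change -3.72, SE 0.46, adjusted p = 0.011) and the receptor Acvr1c (9.66 and 8.15 against 1.24 and 0.513 CPM) fell. FGF, EGF and VEGF families had 10 rises and 8 falls among 54. Fgf11, an intracellular FGF homologue, was at 69.7 and 67.9 against 19 and 8.24 CPM (log2 fold change -2.50, SE 0.35, adjusted p = 0.012), Vegfb at 69 and 75.7 against 21.4 and 14.8 CPM, and Fgf14 at 9.59 and 8.09 against 22.5 and 30.7 CPM. Of 24 neurotrophin and GDNF family genes 2 rose and 4 fell. The neurotrophin receptor Ngfr (p75NTR) was at 17.1 and 13.9 CPM in control and 113 and 205 CPM with Sox11 (log2 fold change 3.32, SE 0.36, adjusted p = 0.011) and its partner Sort1 at 233 and 154 against 342 and 450.4 CPM, while the ligand Bdnf was at 296 and 197 against 87.2 and 34.2 CPM (log2 fold change -2.16, SE 0.52, adjusted p = 0.033). In insulin and IGF signalling 6 of 36 rose and 1 fell, with Igf1r at 25.1 and 7.65 against 43.9 and 63.8 CPM, the PI3-kinase subunit Pik3r3 at 122 and 118 against 324 and 453 CPM (log2 fold change 1.67, SE 0.19, adjusted p = 0.011) and Igfbp6 at 3.72 and 3.58 against 0.51 and 0.543 CPM.

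Among cytokine receptors and JAK-STAT genes 5 of 37 rose and 7 fell. The chemokine Cxcl12 was at 25.4 and 19.7 CPM in control and 3.89 and 0.543 CPM with Sox11 (log2 fold change -4.0, SE 0.93, adjusted p = 0.030), Cx3cl1 at 90.1 and 86.1 against 35.9 and 13.1 CPM, and Jak2 at 36.6 and 40.8 against 89.5 and 127 CPM (log2 fold change 1.46, SE 0.22, adjusted p = 0.013). The interferon, innate sensing and antigen presentation list had 5 rises and 4 falls among 41. Besides Usp18, Oasl2 (0.823 and 0.856 against 7.57 and 5.43 CPM, log2 fold change 2.89, SE 0.39, adjusted p = 0.012) and the class I gene H2-T23 (0.322 and 0.415 against 3.2 and 2.71 CPM) rose, while the peptide transporter Tap2 (2.54 and 3.35 against 0.946 and 0.543 CPM) and the receptor Ifnar2 (-0.85) fell. Of 42 genes of retinoid, thyroid and nuclear receptors 9 fell and 2 rose. The glucocorticoid receptor Nr3c1 was at 6.01 and 5.84 against 1.46 and 0.272 CPM (log2 fold change -3.26, SE 0.65, adjusted p = 0.021) and the thyroid hormone receptor Thrb at 13 and 14.8 against 3.49 and 1.66 CPM (log2 fold change -2.56, SE 0.38, adjusted p = 0.013).

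Matrix and adhesion genes moved in both directions, with large changes in single members. Of 82 genes of collagens, laminins and matrix 10 rose and 8 fell. Beside Vcan, Col5a2 was at 4.47 and 4.44 CPM in control and 38.4 and 58.3 CPM with Sox11 (log2 fold change 3.41, SE 0.34, adjusted p = 0.0083) and the laminin Lama1 at 9.34 and 6.36 against 43.9 and 53.9 CPM, while Col6a2 was at 55.9 and 46 CPM in control and 8.23 and 2.26 CPM with Sox11 (log2 fold change -3.60, SE 0.57, adjusted p = 0.014). Among matrix proteases and inhibitors 10 of 45 rose and 7 fell. The gelatinases went opposite ways, Mmp2 at 5.22 and 7.11 against 48.8 and 55.7 CPM (log2 fold change 3.07, SE 0.27, adjusted p = 0.0075) and Mmp9 at 4.58 and 5.63 against 1.06 and 0.452 CPM (log2 fold change -2.90, SE 0.53, adjusted p = 0.017), and Serpini1 (neuroserpin) was at 123 and 118 against 493 and 682 CPM (log2 fold change 2.27, SE 0.20, adjusted p = 0.0075). In integrins 7 of 32 fell and 3 rose, with Itga6, a laminin receptor subunit, at 52.6 and 43.4 against 22.7 and 21.8 CPM, Itga5, part of the fibronectin receptor, at 5.01 and 15.8 against 1.16 and 1.24 CPM, and Itgb8 at 2.08 and 1.48 against 14.6 and 28.4 CPM (log2 fold change 3.58, SE 0.54, adjusted p = 0.013). Cadherins and protocadherins had 8 rises and 7 falls among 40, with N-cadherin (Cdh2) at 141 and 138 against 318 and 449 CPM (log2 fold change 1.44, SE 0.19, adjusted p = 0.012) and Cdh23 at 8.87 and 6.07 against 1.16 and 0.422 CPM. IgLON, L1 and contactin genes had 9 rises and 10 falls among 48, and Cntnap1, the paranodal protein Caspr, was at 287 and 143 against 63.1 and 16.3 CPM (log2 fold change -2.70, SE 0.62, adjusted p = 0.030).
Of 51 genes of chondroitin and heparan sulphate synthesis 5 rose and 8 fell. The heparan sulphate proteoglycan Gpc2 was at 85.6 and 105 CPM in control and 646 and 873 CPM with Sox11 (log2 fold change 2.99, SE 0.20, adjusted p = 0.0075), while the sulphotransferases Hs3st1, Hs3st2 and Hs3st4 fell by 2.03, 1.59 and 1.39 (log2). Gpc2 shares 56% of its exon sequence with a predicted gene on the same strand. Among Nogo and inhibitory receptors 4 of 19 rose, Ngfr included, and 3 fell, Rtn4r (-0.98), Rtn4rl1 (-0.89) and Lingo3 (-1.77).

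The cytoskeleton lists held changes in both directions at high level. Of 108 actin and small GTPase regulators 15 rose and 18 fell. Rhoc, a small GTPase that acts on actin, was at 184 and 280.4 CPM in control and 49.1 and 16.7 CPM with Sox11 (log2 fold change -3.01, SE 0.49, adjusted p = 0.014), Tagln2 at 152 and 150.3 against 55.4 and 13.8 CPM, and Dock4, an exchange factor for Rac, at 16.4 and 8.12 against 59.6 and 97.6 CPM (log2 fold change 2.78, SE 0.41, adjusted p = 0.013). Among 60 tubulins and microtubule proteins 10 rose and 11 fell. Dcx (doublecortin), typical of immature neurons, was at 300.1 and 263 CPM in control and 1185 and 1693 CPM with Sox11 (log2 fold change 2.33, SE 0.21, adjusted p = 0.0075), and Stmn1 at 936 and 1489 against 2683 and 3439.8 CPM. Map1a, a microtubule protein of mature neurons, was at 1180.3 and 572 CPM in control and 255 and 73.1 CPM with Sox11 (log2 fold change -2.59, SE 0.61, adjusted p = 0.031). Kinesin and dynein motors had 3 rises and 5 falls among 46, with the dynein chain Dync1i1 at 36.6 and 33.4 against 8.95 and 3.38 CPM (log2 fold change -2.71, SE 0.44, adjusted p = 0.014).

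RGC identity genes moved in both directions. Of 40 pan-RGC markers 6 rose and 8 fell, with a median of 0.055. Onecut2, Myt1 and Map2 rose (1.71, 1.68 and 1.40), and the neurofilaments Nefh and Nefm fell, Nefh from 179 and 109 to 30.0 and 16.2 CPM (log2 fold change -2.69, SE 0.35, adjusted p = 0.012). Among RGC subtype genes 3 of 40 rose and 8 fell. Opn4 (melanopsin), of intrinsically photosensitive RGCs, was at 4.08 and 7.84 CPM in control and 0.91 and 0.483 CPM with Sox11 (log2 fold change -3.14, SE 0.59, adjusted p = 0.018). Spp1 (osteopontin), of alpha RGCs, was at 14.4 and 43.1 CPM in control and 3.86 and 30.2 CPM with Sox11, with overlap between groups (adjusted p = 0.372), and its sign turned without Sox11 replicate 1 (log2 fold change 0.21). Of 44 imprinted genes 8 fell and 3 rose, with Dlk1 at 18.9 and 12.5 against 4.11 and 1.39 CPM, Rasgrf1 at 55.9 and 32.9 against 9.57 and 4.92 CPM and Nnat at 925 and 1091 against 1517 and 1697 CPM. Of 10 crystallin and related genes 3 rose, Cryba2, Crybg1 (8.09 and 8.67 against 49.9 and 41.8 CPM, log2 fold change 2.44, SE 0.19, adjusted p = 0.0075) and Cryz (0.83), and Crybg3 fell (-1.22).

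Reactome pathways with 20 to 200 genes tested, 548 in all, gave a view that did not depend on hand-written lists. The 6 with the highest share of falls, leaving out those that shared most of their genes with another already named, were Gluconeogenesis (17 of 27), Basigin interactions (10 of 21), Transferrin endocytosis and recycling (9 of 22), Respiratory electron transport (29 of 75), Glucose metabolism (25 of 66) and Regulation of insulin secretion (13 of 36). Rises in them ranged from 0 to 3. All 27 genes of Gluconeogenesis were also in Glucose metabolism, so its 17 falls are among the 25 counted there. The 6 with the highest share of rises were histone demethylation by HDMs (10 of 23, with 0 falls), the tetrasaccharide linker for GAG synthesis (8 of 24, with 3 falls), Signaling by NOTCH2 (9 of 27, with 2), Signaling by Robo receptor (6 of 20, with 2), VEGFR2 mediated vascular permeability (6 of 20, with 0) and Semaphorin interactions (15 of 57, with 6). The median log2 fold change of the histone demethylase pathway was 0.72 (0.63 without Sox11 replicate 2) and that of gluconeogenesis -0.87 (-0.68). A high share of rises did not mean a raised median. That of VEGFR2 permeability was -0.019 (0.049 without Sox11 replicate 2), and those of the tetrasaccharide linker (0.055) and of semaphorin interactions (0.049) turned to -0.26 and -0.12 without that library.

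The genes that rose were longer than those that fell. The median span on the genome was 43151 bases for genes called up, 15348 for genes called down and 22304 for all genes tested, and the median number of exon blocks was 12, 8 and 9. When all genes were split into 10 equal groups by transcript length, the median log2 fold change went from -0.25 in the group of shortest genes (median 760 bases) to 0.25 in the longest (6728 bases). The share called up went from 2.50% to 19.5%, and that called down from 10.6% to 5.18%, with a peak of 14.3% in the group next to the shortest. Without Sox11 replicate 2 the medians of the groups at both ends were -0.21 and 0.21. The part of transcript length in the results of the lists, short for the respiratory chain and ribosomal proteins, was not tested beyond the genes of like length given above.

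**Figure D5:**
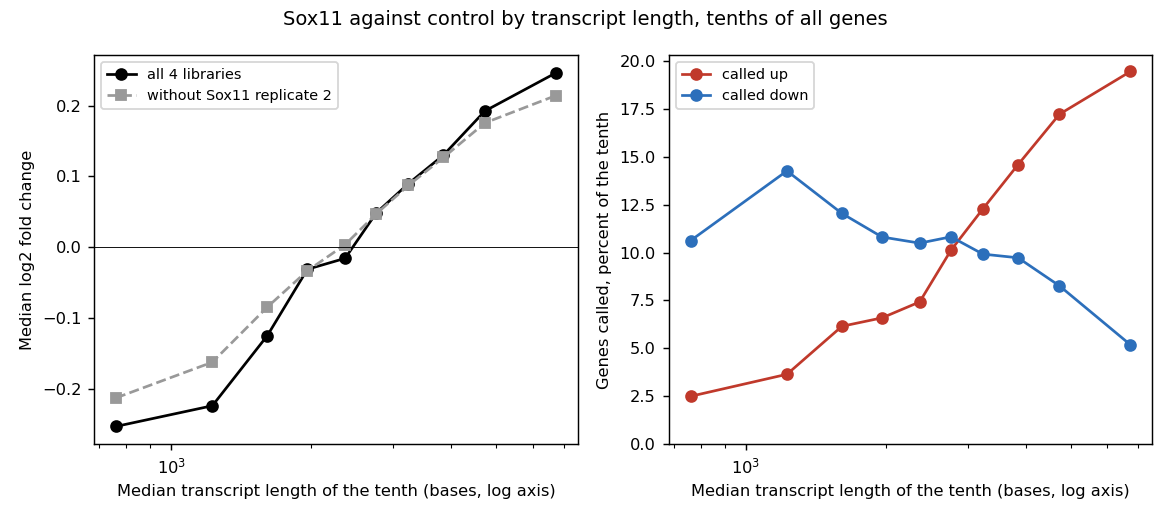
Median log2 fold change (left, all 4 libraries in black and without Sox11 replicate 2 in grey) and percent of genes called up (red) and down (blue) with Sox11 (right), for 10 equal groups of all genes by transcript length, against the median length of each group in bases (log axis). The median rises from -0.25 to 0.25 and the share called up from 2.50% to 19.5% with length.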

How the data were processed

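RNA was sequenced from 6 libraries of 3 groups in duplicate. According to the submitters' processing notes, reads were aligned to mm10 with STAR and quantified with RSEM by the authors, who deposited expected counts and TPM per Ensembl gene for each library; limma is named there too, and versions are not given in the sources used here. Expected counts were rounded, genes with low counts were removed (filterByExpr, 3 groups), and all 6 libraries were fitted together with limma-voom (limma 3.58.1, edgeR 4.0.16, R 4.3.3) after TMM scaling. A gene was called at a Benjamini-Hochberg FDR under 0.05 and a fold change above 1.2. TPM values as deposited were used only for alternatives and levels. The steps were tested on simulated data. Genes named with values were Sox11, Opn4 and Spp1, the 10 largest rises and 10 largest falls (predicted genes left out) and up to 3 members per direction of each list, chosen among calls with a mean of 1 CPM or more and no overlap of groups, or the 2 members of highest TPM where a list had no call. Cell type markers and other called members are named beside them. The comparison and lists were chosen with earlier results of these data known. Alternatives were edgeR, DESeq2 1.42.0, other scaling, filters, units, weights, blocks and thresholds, and leaving out each library. Spike-in entries were at 0. A few genes are not reported here. Reactome pathways were counted only, with no test.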

Additional observations from a re-analysis of the deposited data

How the results depend on the processing

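The Sox11 level kept its direction under all 19 alternatives tried. Leaving out 1 library at a time gave log2 fold changes from 5.05 (without Sox11 replicate 2, where limma-voom no longer called it) to 5.697. Counts of genes called were 797 up and 801 down in a fit of the 4 libraries, 527 and 452 with sample quality weights, and 869 and 984 at a fold change above 2. On log2(TPM + 1) and log2(TPM + 0.1) values, 932 and 820 genes were called down. Leaving out 1 library gave from 0 to 1932 genes up and from 0 to 1821 down. Both counts were 0 without Sox11 replicate 2, 802 and 988 without control replicate 2, 849 and 846 without Sox11-K91A replicate 1, and 832 and 844 without Sox11-K91A replicate 2. Chosen after seeing the data, edgeR and DESeq2 without Sox11 replicate 2 called 107 and 713 up and 10 and 714 down. DESeq2 on all 6 libraries called 2119 up and 2226 down, and a block for the libraries of low Xist gave 2230 and 2398. The cause of these differences was not tested. Of the counts of rises and of falls in the 62 lists, 116 moved by more than 1.5 times without Sox11 replicate 2, 99 with sample quality weights, 72 without control replicate 2 and 67 in the fit of 4 libraries.

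With the replicate number as a replicate block, 1324 genes rose and 1401 fell in the fit of 6 libraries and 1472 and 1772 in the fit of 4. Deviations of same-numbered libraries from their group means correlated at 0.245 for the compared groups, and at -0.039 (control) and -0.254 (Sox11) with those of Sox11-K91A, so the numbers were not taken as pairs. Control replicate 2 and Sox11 replicate 2 nevertheless stood together in Xist and on the second principal component.

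Igf2bp1, an RNA-binding protein with a log2 fold change of -1.66 (1.72 and 2.39 against 0.619 and 0.664 CPM, adjusted p = 0.040), turned to 0.025 on log2(TPM + 1) values. Spp1 ranged from -2.729 to 0.21 and mt-Co2 from -0.065 to 0.254 when 1 library was left out, with mt-Co2 at -0.036 without Sox11 replicate 2. With 2 libraries a group, only changes large against that spread could be called. The libraries are possibly technical replicates, though those of control and of Sox11 differed in RNA of sex-linked genes.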

Other observations

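Levels in the Sox11-K91A libraries, which are in no comparison above, are given for 4 of the genes with the largest changes. Vcan was at 217 and 109.9 CPM, Kctd12b at 37.3 and 16.1 CPM, Mmp12 at 0.931 and 3.15 CPM, and Plaur at 0.248 and 0.171 CPM. Sox11 itself was at 11971 and 7026 CPM there.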
